A study of Mus musculus with 4 samples.

Results

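The genes described here are 7 that handle the amino acid arginine, Nos2, Arg1, Arg2, Ass1, Asl, Slc7a2 and Odc1. They were taken by symbol from the 32285 gene identifiers of the count matrices, and all 7 were found. The study treated female FVB mice that carried peritoneal tumors of Br-Luc cells, a mouse ovarian cancer line, with small interfering RNA given into the peritoneal cavity in jetPEI nanoparticles. The siCont group received a control siRNA, which the methods name siCont-LNA, and the siFXR1-LNA group received an siRNA with locked nucleic acid bases against Fxr1, an RNA-binding protein. Ascites, the fluid that collects in the peritoneal cavity with such tumors, was taken, by the labels, 6 weeks after the tumor cells were injected, and its cells were profiled by droplet single-cell RNA sequencing after lysis of red cells. There were 2 libraries per group, each pooled from the ascites of 3 mice by the methods, so that a p-value here measures only the spread between 2 pools. By the methods, the study left a siFXR1-LNA replicate with fewer reads out of its own analysis, without naming it by number. Both siFXR1-LNA replicates are used here. The comparison asks whether the levels of these genes differed between the groups within each cell type.

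Arginine stands at a branch point in myeloid cells. Inducible nitric oxide synthase, the product of Nos2, turns it into nitric oxide and citrulline, whereas arginase 1 (Arg1, in the cytosol) and arginase 2 (Arg2, in mitochondria) split it into ornithine and urea. Slc7a2 encodes the cationic amino acid transporter CAT2, which carries arginine into the cell. Argininosuccinate synthase (Ass1) and argininosuccinate lyase (Asl) rebuild arginine from citrulline, and ornithine decarboxylase (Odc1) makes the polyamine putrescine from ornithine. Nos2 is widely used as a marker of macrophages activated by interferon or bacterial products, and Arg1 as a marker of macrophages activated by interleukin-4 or found in tumors.

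On the GRCm38 build, Nos2 lies at chr11:78920787-78960254 on the plus strand and Arg1 at chr10:24915221-24927484 on the minus strand. Arg2 lies at chr12:79130777-79156301 on the plus strand and overlaps 2 genes of the minus strand, Vti1b and the antisense gene Gm48780. Ass1 lies at chr2:31470207-31520672 (plus), Asl at chr5:130011258-130029247 (minus), Slc7a2 at chr8:40862396-40922308 (plus) and Odc1 at chr12:17544794-17551505 (plus). Slc7a2 overlaps the noncoding gene Gm26584 on the other strand, and a small nucleolar RNA gene, Gm22748, lies within Odc1. Over the 4 libraries the cells held 392369 UMIs of Arg1, 24535 of Nos2, 23652 of Slc7a2, 16363 of Odc1, 12838 of Ass1, 4881 of Asl and 3993 of Arg2, where a UMI is a molecular identifier that counts 1 captured transcript.

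The libraries held 78179267 to 113606837 UMIs, and 16874 to 54344 cells per library passed the filters, 132644 in all. Pairs of libraries shared 575 to 2846 cell barcodes. The UMI share of hemoglobin genes was 29.5 and 41.1% for siCont replicates 1 and 2, against 10.0 and 9.11% for the 2 siFXR1-LNA replicates. Fxr1 itself, summed over all barcodes, stood at 57.3 and 36.6 CPM (counts per 1000000 UMIs) in the siCont libraries. In those labelled siFXR1-LNA it stood at 104 and 74.4 CPM. With hemoglobin UMIs left out it stood at 81.3 and 62.1 against 116 and 81.8 CPM. The targeted transcript was thus not lower in the siFXR1-LNA libraries as a whole. The libraries differed in their cells, with 22150 and 15807 erythroid cells in siCont against 22 and 67 in siFXR1-LNA. Fxr1 within a cell type was not compared. Each direction below is therefore one between libraries as labelled. A cluster of 46533 cells, of which 41007 came from siFXR1-LNA replicate 1 and 5419 from siFXR1-LNA replicate 2, stayed unnamed. It had 5 of 9 tumor or mesothelial markers and 1 of 6 fibroblast markers raised. The name was withheld because its leading genes held Dcn, a fibroblast marker, and no tumor or mesothelial marker. It was led by Sprr1a, Ndufa4l2, Ccn2 and Car9.

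Cells were grouped without the 7 genes and named from marker genes. There were 4938 and 2369 macrophages in siCont replicates 1 and 2, and 3957 and 3711 in siFXR1-LNA replicates 1 and 2. The clusters called macrophages had 8 of 8 and 5 of 8 macrophage markers raised. Levels are given as CPM, the UMIs of a gene summed over the cells of 1 type and library scaled by all UMIs of those cells. Changes are log2 fold changes of siFXR1-LNA over siCont with their standard error (SE) from edgeR's quasi-likelihood test, with 2 libraries against 2 and Benjamini-Hochberg adjustment over all genes tested in that cell type, and a gene is called at an adjusted p under 0.05.

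In macrophages, 4 of the 7 genes were called, and all of them were higher in siFXR1-LNA. They were Nos2, both arginases and the transporter Slc7a2. Among all 14646 genes tested in macrophages 20.6% were called, and 9.87% were called as higher. Ass1, Asl and Odc1 did not pass the test.

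Nos2 stood at 0.150 and 0.153 CPM in the macrophages of siCont replicates 1 and 2, and at 376 and 321 CPM in those of siFXR1-LNA replicates 1 and 2. Both siFXR1-LNA libraries were high and the groups did not overlap. The siCont macrophages held 7 Nos2 UMIs in all and the siFXR1-LNA macrophages 19302, a ratio of levels of 2274 with an exact 95% interval of 1104 to 5657. Intervals and floors in this text cover counting error only. The fitted change was 11.34 (SE 0.25, adjusted p = 0.00123).

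Arg1 was already present in siCont macrophages, at 1065 and 1850 CPM in replicates 1 and 2, and stood at 4756 and 4588 CPM in siFXR1-LNA replicates 1 and 2. The groups did not overlap, and the siCont pair differed more (SD 555) than the siFXR1-LNA pair (SD 119). The change was 1.89 (SE 0.35, adjusted p = 0.0239). The call was lost without siFXR1-LNA replicate 1 (adjusted p = 0.113) or without siFXR1-LNA replicate 2 (adjusted p = 0.0859).

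Arg2, the mitochondrial arginase, stood at 0.899 and 1.94 CPM in siCont macrophages and at 19.5 and 21.9 CPM in those of siFXR1-LNA. The groups did not overlap, and the change was 4.11 (SE 0.39, adjusted p = 0.00723). Slc7a2, the arginine importer, stood at 60.4 and 63.5 CPM in siCont and at 267 and 199 CPM in siFXR1-LNA. All siFXR1-LNA values again lay above all siCont values, with a change of 2.13 (SE 0.20, adjusted p = 0.00716). The calls of Nos2, Arg2 and Slc7a2 held without each library in turn.

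Ass1, Asl and Odc1 had small changes in macrophages that did not pass the test. Ass1 stood at 42.8 and 53.6 CPM in siCont and at 48.4 and 59.8 CPM in siFXR1-LNA, and the groups overlapped (change 0.38, SE 0.18, adjusted p = 0.187). Asl stood at 16.1 and 17.5 CPM against 19.3 and 19.8 CPM, without overlap but short of the threshold (change 0.43, SE 0.13, adjusted p = 0.0774). Odc1 stood at 40.8 CPM in both siCont libraries and at 39.1 and 34.7 CPM in siFXR1-LNA, and its change was 0.07 (SE 0.12, adjusted p = 0.705), while the CPM were slightly lower in siFXR1-LNA. The fit scales libraries by TMM factors, which the CPM do not use.

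**Figure D1:**
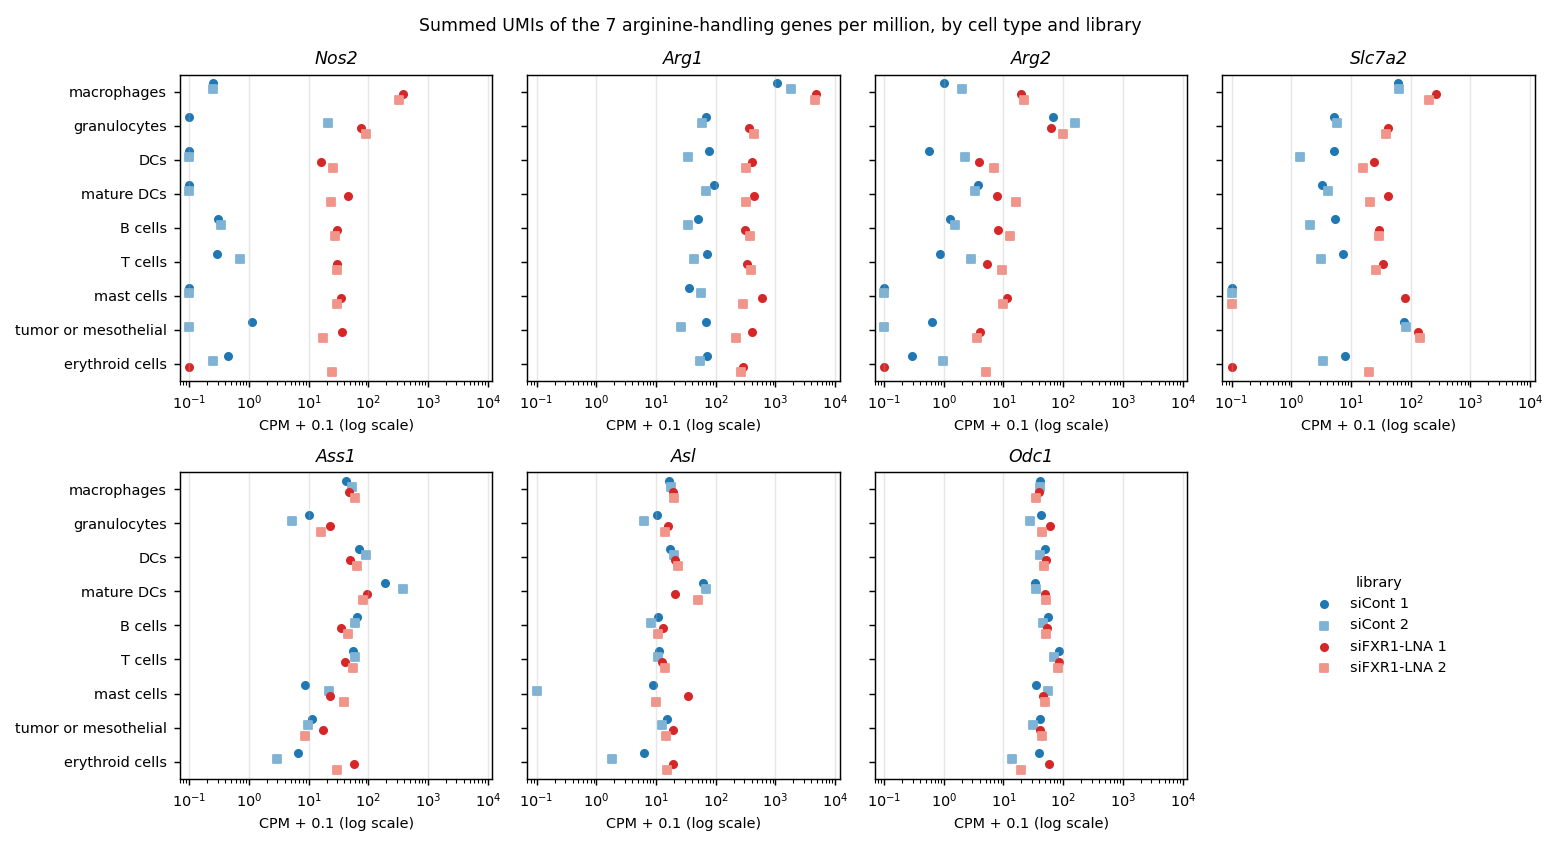
Summed UMIs of each gene in CPM in 9 cell types, 1 point per library, on a log axis after adding 0.1 CPM so that values of 0 can be drawn (circles, replicate 1; squares, replicate 2; blue, siCont; red, siFXR1-LNA). In macrophages Nos2 lies at 0.150 and 0.153 CPM in siCont and at 376 and 321 CPM in siFXR1-LNA, whereas the Odc1 points lie between 34.7 and 40.8 CPM.

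Several measurements moved with these values. In macrophages the summed level of the 7 granulocyte markers was 118 and 458 CPM in siCont and 1306 and 1540 CPM in siFXR1-LNA, and 2 of the 7, Csf3r and Mmp9, were called higher. None of the 7 was at 0 in any library. The 6 B cell markers summed to 312 and 243 CPM in siCont macrophages and to 31.2 and 48.2 CPM in siFXR1-LNA, and all 6 were called lower. The 7 DC markers (dendritic cells) went from 78.7 and 94.8 to 5.59 and 7.69 CPM, with 5 called lower and Xcr1 at 0 in a library. The 6 mast cell markers went from 864 and 285 to 39.7 and 51.1 CPM, with 5 called lower. The 5 erythroid markers went from 80212 and 57531 to 29562 and 12594 CPM, with 1, Alas2, called lower. The 7 T cell markers went from 47.5 and 58.5 to 7.60 and 14.9 CPM, with 3 called lower. The 5 platelet markers went from 719 and 1423 to 2227 and 2240 CPM, with 1, Ppbp, called higher. The macrophage markers themselves summed to 26737 and 19450 CPM in siCont and to 8257 and 15355 CPM in siFXR1-LNA, with 2 of 8, C1qb and Mrc1, called lower. Their part in the changes of the arginine genes was not tested.

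The macrophages of the 2 groups fell into different subclusters, which were also drawn without the 7 genes. Subcluster 0 (leading genes Retnla, Alox15, Ednrb and Mrc1) held 2969 and 1224 cells of the siCont libraries and 1194 and 1295 of the siFXR1-LNA libraries. Subcluster 1 (Ms4a4a, Cacna1d, Ptges, Hmox1 and Cd163) held 2082 and 1899 cells of the siFXR1-LNA libraries and 1 cell of siCont. Subcluster 2 (Fcgr1, Nr1h3, Gbp2b and Ccl12) held 1035 and 710 siCont cells and 1 cell of siFXR1-LNA. Subcluster 4 (Cacna1d, Kcnk13, Ptprm and F13a1), subcluster 5 (Cd209a, Mgl2 and Clec10a) and subcluster 6 (the cycling genes Pclaf, Birc5 and Aurkb) held cells of all 4 libraries. Subclusters 1 and 2 therefore could not be compared between the groups.

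Nos2 was unevenly spread over these subclusters. Subcluster 1 held 79.7 and 81.3% of the macrophage Nos2 UMIs in siFXR1-LNA replicates 1 and 2, at 449 and 418 CPM. Subcluster 4 had the highest level, 802 and 1006 CPM in siFXR1-LNA, with no Nos2 UMI in its 116 and 45 siCont cells. Against a floor of 3 UMIs over the siCont group, that is at least 136-fold higher. Subcluster 0 stood at 22.6 and 17.6 CPM in siFXR1-LNA, against 0.123 and 0 CPM in siCont, and held 1.38 and 1.61% of the macrophage Nos2 UMIs.

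Arg1 followed another order. It was high in subcluster 0 of every library, at 1468 and 3215 CPM in siCont and 4957 and 3036 CPM in siFXR1-LNA, where the groups overlapped. Subcluster 1 stood at 5050 and 5585 CPM in siFXR1-LNA, and subcluster 2 at 283 and 262 CPM in siCont. In subcluster 4 Arg1 stood at 500 and 484 CPM in siCont and at 2228 and 2766 CPM in siFXR1-LNA, without overlap. Of all macrophage Arg1 UMIs, subcluster 0 held 83.7 and 84.6% in siCont and 24.0 and 19.4% in siFXR1-LNA, where subcluster 1 held 70.9 and 76.1%.

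Slc7a2 was also highest in subcluster 4, at 542 and 653 CPM in siFXR1-LNA against 96.1 and 223 CPM in siCont, without overlap. In subcluster 0 it stood at 77.1 and 97.4 CPM in siCont and at 235 and 67.1 CPM in siFXR1-LNA, where replicate 2 lay below both siCont values. Arg2 stood at 37.2 and 40.3 CPM in subcluster 4 of siFXR1-LNA, with no UMI in siCont, which is at least 5.86-fold higher against the floor. In subcluster 0 its siFXR1-LNA mean was 7.78 CPM, against a mean of 10.5 CPM in the B cells of that group. Ass1 stood at 75.6 and 119 CPM in the siCont cells of subcluster 2 and at 61.2 and 84.7 CPM in the siFXR1-LNA cells of subcluster 1, against 8.80 to 26.1 CPM over the 4 libraries in subcluster 0.

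Tested within single subclusters, with this comparison added after the data were seen, the calls depended on the subcluster. In subcluster 4 all 4 genes called in macrophages as a whole were called higher, where 11.1% of all genes tested were called. There the Arg1 change was 2.34 (SE 0.32, adjusted p = 0.00305) and the Slc7a2 change 1.99 (adjusted p = 0.0112). The erythroid markers in subcluster 4 summed to 179354 and 176116 CPM in siCont and to 54760 and 34663 CPM in siFXR1-LNA. Their part in these changes was not tested. In subcluster 0 edgeR called 0 of the 7 genes and 0% of all genes, with 2 of the 7 at an unadjusted p under 0.05. Its Arg1 change was 0.79 (adjusted p = 0.639) and its Slc7a2 change 0.82 (adjusted p = 0.676). In subcluster 5, with 0.672% of genes called, Arg1 was called (1.77, adjusted p = 0.0136), but this subcluster had 3 of 6 B cell markers raised and only 21 and 44 cells in siFXR1-LNA. In subcluster 6, with 3.86% of genes called, Nos2 and Slc7a2 were called, at least 125-fold higher for Nos2 and a change of 2.93 for Slc7a2 (adjusted p = 0.000824), and Arg1 stood just past the threshold (1.85, adjusted p = 0.0503).

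**Figure D2:**
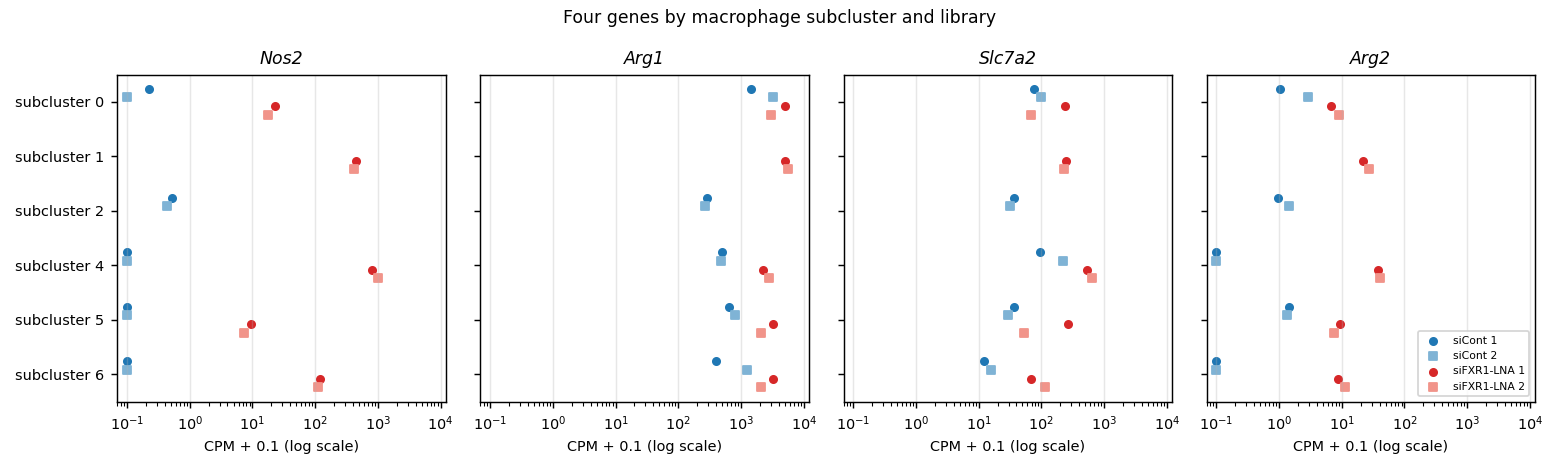
CPM of Nos2, Arg1, Slc7a2 and Arg2 in 6 macrophage subclusters, 1 point per library with at least 10 cells, on a log axis after adding 0.1 CPM (circles, replicate 1; squares, replicate 2; blue, siCont; red, siFXR1-LNA). The Nos2 points of siFXR1-LNA run from 17.6 and 22.6 CPM in subcluster 0 to 802 and 1006 CPM in subcluster 4, while the Arg1 points of both groups overlap in subcluster 0.

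Nos2 and Arg1 were then counted in single macrophages, with each cell thinned to 1000 UMIs so that libraries of different depth could be set side by side. The median depth of macrophages was 5086 and 8156 UMIs in siCont and 5209 and 8636 in siFXR1-LNA, and thinning left out 10 to 71 macrophages per library that had fewer than 1000 UMIs. After thinning, Nos2 was found in 0 of 4867 and 1 of 2330 siCont macrophages and in 22.1% (20.9 to 23.5) and 19.5% (18.2 to 20.8) of siFXR1-LNA macrophages, with exact binomial 95% intervals in parentheses. The count of 0 allows up to 0.0616% of cells with a Nos2 UMI at this depth. This limit is 3 cells over the 4867 counted, which is tighter than the exact interval. It sets no limit on cells that express the gene at a lower level. Without thinning the shares were 0.0810 and 0.127% in siCont and 48.6 and 47.9% in siFXR1-LNA.

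Arg1 was found in 38.5 and 42.7% of the thinned siCont macrophages and in 79.9 and 77.7% of those of siFXR1-LNA, without overlap. Without thinning the shares were 57.4 and 57.7% against 91.6 and 93.2%. The difference of the group means after thinning was 20.8 percentage points for Nos2 and 38.2 for Arg1. An exact two-sided permutation test over the 4 libraries gave p = 0.333 for each, which is the smallest p that 2 libraries against 2 allow.

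In siFXR1-LNA most macrophages with a Nos2 UMI also held an Arg1 UMI. Both transcripts were found in 736 of 3934 and 626 of 3701 thinned macrophages of replicates 1 and 2, where the product of the separate shares gives 696 and 560 cells. The odds ratios were 1.48 and 2.13. Of the thinned macrophages with a Nos2 UMI, 84.5 and 86.8% held an Arg1 UMI, against 78.7 and 75.5% of those without. In siCont no thinned macrophage held both, and 2 and 3 did without thinning. The 2 genes were thus found together in single macrophages slightly more often than the product in both siFXR1-LNA libraries.

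The joint presence was also seen within subclusters. In subcluster 1, where 30.6 and 30.0% of thinned cells held Nos2, both genes were found in 566 and 504 cells, against 525 and 469 from the product (odds ratios 2.03 and 1.95). In subcluster 4, where 35.9 and 38.2% held Nos2, both were found in 174 and 133 cells, against 162 and 120 (odds ratios 1.53 and 2.07). In subcluster 0 only 1.77 and 1.16% of thinned cells held Nos2. These are values of cells that share a library and they carry no test.

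The importer and the mitochondrial arginase were also higher in macrophages that held Nos2. In siFXR1-LNA replicate 1, the 871 thinned macrophages with a Nos2 UMI had 456 CPM of Slc7a2 and the 3063 without had 226 CPM. In replicate 2 the values were 466 CPM in 721 cells and 160 CPM in 2980 cells. Arg2 stood at 36.7 against 10.8 CPM in replicate 1 and at 30.5 against 17.4 CPM in replicate 2, and Arg1 at 4699 against 4026 CPM and at 5162 against 3759 CPM. Within subcluster 4 the Slc7a2 levels were 848 against 435 CPM and 863 against 458 CPM. In the same cells of subcluster 4 the granulocyte markers took 0.271 against 0.140% of UMIs in replicate 1 and 0.281 against 0.154% in replicate 2, and over all cells of that subcluster they summed to 106 and 425 CPM in siCont and 1901 and 2065 CPM in siFXR1-LNA. Doublets had not been removed, and their part in these values was not tested. Cells with a Nos2 UMI had been deeper before thinning, with medians of 6194 against 5091 UMIs in replicate 1 and 9305 against 8516 UMIs in replicate 2.

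**Figure D3:**
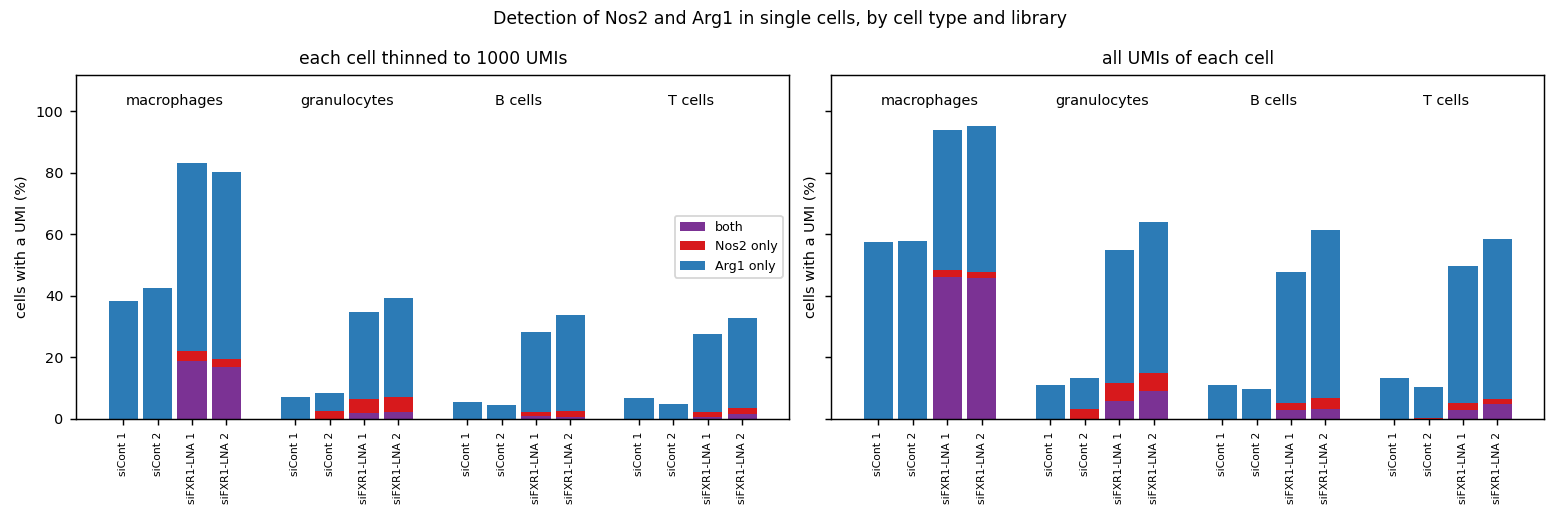
Share of cells (%) with a UMI of both Nos2 and Arg1 (purple), of Nos2 only (red) or of Arg1 only (blue), stacked, by cell type and library, with each cell thinned to 1000 UMIs on the left and with all UMIs on the right. Cells with both make up 18.7 and 16.9% of thinned siFXR1-LNA macrophages and at most 2.34% of thinned granulocytes.

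Transcripts in the fluid can enter any droplet, so the lymphocytes, which are not known for Nos2 or Arg1, give a background. In thinned B cells Nos2 was found in 0 and 0.0414% of siCont and 2.31 and 2.51% of siFXR1-LNA cells, and Arg1 in 5.38 and 4.43% of siCont and 26.8 and 32.0% of siFXR1-LNA cells. The B cells had median depths of 2389 and 2721 UMIs in siCont and 2025 and 2292 UMIs in siFXR1-LNA. The Nos2 and Arg1 shares of siFXR1-LNA macrophages and the Arg1 shares of siCont macrophages lay above those of the B cells of the same library. The Nos2 shares of subcluster 0 lay below those of the B cells, so they do not stand above the background.

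In B cells, Nos2 stood at 0.209 and 0.243 CPM in siCont and at 29.3 and 27.7 CPM in siFXR1-LNA, from 4 and 107 UMIs. It was the 1 member called there, where 0.112% of genes were called (change 6.66, SE 0.41, adjusted p = 0.0258). The call was lost without siFXR1-LNA replicate 1 (adjusted p = 0.0616) or 2 (adjusted p = 0.0618). Arg1 stood at 50.2 and 34.1 CPM against 310 and 369 CPM, without overlap (change 2.82, SE 0.29, adjusted p = 0.0535).

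T cells had nearly the same values. Nos2 stood at 0.190 and 0.621 CPM in siCont and at 29.5 and 30.3 CPM in siFXR1-LNA, and Arg1 at 70.7 and 43.2 against 333 and 386 CPM. Both were called, where 0.579% of genes were (Nos2 5.87, SE 0.50, adjusted p = 0.0123; Arg1 2.48, SE 0.33, adjusted p = 0.0429). The Arg1 call was lost without siFXR1-LNA replicate 1 (adjusted p = 0.0788) or 2 (adjusted p = 0.0945).

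The share of Nos2 in the summed Nos2 and Arg1 UMIs was close in these cells and in macrophages. In siFXR1-LNA replicates 1 and 2 it was 7.33 and 6.54% in macrophages, 8.63 and 6.97% in B cells and 8.14 and 7.28% in T cells. The tumor or mesothelial cells (8.26 and 7.54%) and the mature dendritic cells (9.34 and 6.87%) lay in the same range. The DCs stood at 3.76% (2.34 to 5.70) and 7.45%, and the unnamed cluster at 5.82 and 5.78%, below macrophages except for the DCs of replicate 2. How much of the Nos2 and Arg1 in the non-macrophage types came from free RNA was not tested. Macrophages held 72.4 and 85.1% of all Nos2 UMIs of the siFXR1-LNA libraries, and the unnamed cluster 16.2 and 3.93%.

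Granulocytes stood apart in that share. Nos2 made up 17.2% (16.2 to 18.3) and 17.6% (16.6 to 18.6) of their Nos2 and Arg1 UMIs in siFXR1-LNA replicates 1 and 2. Nos2 was found in 6.60 and 7.25% of thinned siFXR1-LNA granulocytes, above the B cells, at median depths of 1870 and 2115 UMIs. Arg1 was found in 30.2 and 34.3% of them, with intervals that overlapped those of the B cells, so that this share does not stand above the background. Cells with both numbered 107 and 110, with odds ratios of 1.00 and 0.91.

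**Figure D4:**
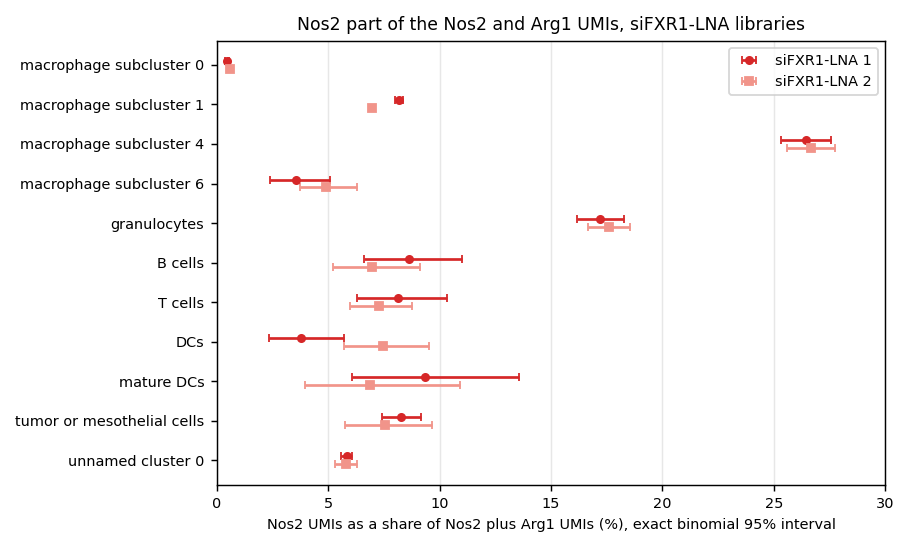
Nos2 UMIs as a share (%) of Nos2 plus Arg1 UMIs in 11 sets of cells of siFXR1-LNA replicates 1 (dark) and 2 (light), with exact binomial 95% intervals. Macrophage subcluster 4 (26.5 and 26.7%) and the granulocytes (17.2 and 17.6%) lie to the right of the B and T cells, and subcluster 0 (0.454 and 0.576%) to their left.

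Granulocytes, phagocytes that can use arginase and nitric oxide synthase, numbered 443 and 906 in siCont and 5483 and 4801 in siFXR1-LNA. Nos2 stood at 0 and 21.0 CPM in siCont replicates 1 and 2 and at 75.9 and 93.0 CPM in siFXR1-LNA. Replicate 2 of siCont thus held Nos2 in granulocytes, with 37 UMIs in 29 of its cells or 71.2% of the Nos2 UMIs of that library. In siCont replicate 1, 0 of the 443 granulocytes held any. Taken as 3 cells over the 443, and not from an exact interval, that allows up to 0.677% of cells with a UMI. The change was 2.44 (SE 0.78) and did not pass the test (adjusted p = 0.122). It passed when any 1 of the 4 libraries was left out.

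In granulocytes, 2 of the 7 genes were called, where 3.02% of all genes were. Arg1 stood at 69.6 and 57.9 CPM in siCont and at 365 and 436 CPM in siFXR1-LNA, without overlap (change 2.42, SE 0.42, adjusted p = 0.0153). The call was lost without siFXR1-LNA replicate 1 (adjusted p = 0.0818) or 2 (adjusted p = 0.127). Slc7a2 stood at 5.06 and 5.68 CPM against 42.1 and 38.6 CPM (change 2.61, SE 0.46, adjusted p = 0.0153), while B cells of the same libraries stood at 5.33 and 1.95 CPM against 29.3 and 29.4 CPM (change 2.80, adjusted p = 0.0987). No granulocyte call was left when no filter on low counts was used.

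Arg2 was a granulocyte gene in these libraries. It stood at 68.4 and 156 CPM in siCont granulocytes and at 63.3 and 99.8 CPM in those of siFXR1-LNA, with overlapping groups and no call (change -0.78, SE 0.51, adjusted p = 0.476). In siCont every other cell type with at least 10 cells per library lay below 4 CPM. In siFXR1-LNA macrophages came next after granulocytes, at a mean of 20.7 CPM against 81.6 CPM. The Arg2 change in macrophages exceeded that in granulocytes by 4.71 (SE 0.39, adjusted p = 1e-07), in a test of the difference itself with the library as a block, where 3.58% of genes were called.

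Dendritic cells (DCs) present antigen to T cells. The mature DCs numbered 394 and 169 in siCont and 212 and 113 in siFXR1-LNA. Their median depth was 4565.5 and 7283 UMIs in siCont and 1303 and 5953 UMIs in siFXR1-LNA replicates 1 and 2. The part of this depth in the values below was not tested. Mature DCs, which had all 5 markers of their list raised, had the highest Ass1 levels among types with at least 10 cells in every library, 189 and 376 CPM in siCont and 93.6 and 83.0 CPM in siFXR1-LNA. The groups did not overlap, but the change of -1.76 (SE 0.40) did not pass the test (adjusted p = 0.101), and it passed without siCont replicate 1 (adjusted p = 0.0372), without siFXR1-LNA replicate 1 (adjusted p = 0.0075) or 2 (adjusted p = 0.0337). Asl, the next enzyme of the cycle, was also highest in mature DCs of siCont, at 61.7 and 68.6 CPM. In siFXR1-LNA mature DCs stood at 21.0 and 49.5 CPM and overlapped the mast cells and the other DCs (change -0.93, SE 0.39, adjusted p = 0.293). The other DCs stood at 70.4 and 90.4 CPM of Ass1 in siCont and at 49.8 and 64.4 CPM in siFXR1-LNA (change -0.53, SE 0.21, adjusted p = 0.241).

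The Ass1 changes differed between macrophages and other types. The change in macrophages exceeded that in mature DCs by 2.15 (SE 0.32, adjusted p = 8.45e-07), that in DCs by 0.89 (SE 0.16, adjusted p = 0.00149) and that in B cells by 1.24 (SE 0.24, adjusted p = 0.0141). These tests of the difference called 4, 8 and 3.56% of all genes, and the Ass1 calls held without each library in turn. For Asl the difference from mature DCs was 1.45 (SE 0.37, adjusted p = 0.00685), and it was lost without siCont replicate 2 (adjusted p = 0.139) or siFXR1-LNA replicate 1 (adjusted p = 0.330).

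In the DCs, 2 of the 7 genes were called, Nos2 and Arg1, where 3.12% of all genes were. Nos2 had no UMI in either siCont library and stood at 15.9 and 25.5 CPM in siFXR1-LNA, at least 87.7-fold higher against the floor (adjusted p = 0.0074). Arg1 stood at 76.3 and 34.6 CPM in siCont and at 406 and 317 CPM in siFXR1-LNA (change 2.66, SE 0.36, adjusted p = 0.0159). Both calls were lost without siFXR1-LNA replicate 1 or 2, in fits where fewer genes were called over all genes as well. With any 1 library left out, the change ran from 8.97 to 9.88 for Nos2 and from 2.21 to 3.31 for Arg1. The Nos2 levels lay below those of the B cells, and the Arg1 levels overlapped them.

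Mature DCs gave a like picture, with 2 of the 7 called and 0.613% of all genes. Nos2 had no siCont UMI and stood at 45.8 and 23.3 CPM in siFXR1-LNA, at least 34.4-fold higher against the floor (adjusted p = 0.0455). Arg1 stood at 91.7 and 67.8 CPM against 445 and 316 CPM (change 2.17, SE 0.33, adjusted p = 0.0458), and the call was lost without siCont replicate 1 (adjusted p = 0.0600) or 2 (adjusted p = 0.126). Slc7a2 stood at 3.16 and 4.08 CPM against 42.0 and 20.4 CPM (change 2.99, adjusted p = 0.0693). Arg2 was too low to be tested there. In siFXR1-LNA the Nos2, Arg1 and Slc7a2 levels of the mature DCs overlapped those of the B cells.

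In the tumor or mesothelial cells, a cluster that the markers did not split further, 3 of the 7 genes were called, where 7.85% of all genes were. Nos2 stood at 1.05 and 0 CPM in siCont and at 36.6 and 17.6 CPM in siFXR1-LNA (change 5.03, SE 0.64, adjusted p = 0.0018), and Arg1 at 69.3 and 25.9 CPM against 406 and 216 CPM (change 2.67, SE 0.44, adjusted p = 0.0066). In siFXR1-LNA these Nos2 and Arg1 levels overlapped those of the B cells, and the Arg2 levels lay below those of the B cells. Arg2 rested on 3 siCont and 46 siFXR1-LNA UMIs, a ratio of 8.57 with an interval of 2.75 to 43.1 (adjusted p = 0.0497). That call was lost without siCont replicate 1 (adjusted p = 0.248) or 2 (adjusted p = 0.0531) and without siFXR1-LNA replicate 2 (adjusted p = 0.0511).

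Slc7a2 was the member with a level of its own in the tumor or mesothelial cells. It stood at 76.2 and 84.6 CPM in siCont, above the macrophages, and at 130 and 144 CPM in siFXR1-LNA, below the macrophages, with no overlap between the cell types in either group. Its change was 0.80 (SE 0.23, adjusted p = 0.0626). The change in macrophages exceeded it by 1.26, which did not pass the test (adjusted p = 0.134, where 0.627% of genes were called).

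In mast cells and erythroid cells edgeR called 0 of the 7 genes, where 0.363 and 0% of all genes were called, with 1 member at an unadjusted p under 0.05 in each and 1 called by DESeq2 in each. Only 1 of the 7 genes passed the filter on low counts in mast cells. Erythroid cells numbered 22 and 67 in the siFXR1-LNA libraries, too few to show changes of the size seen elsewhere.

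**Figure D5:**
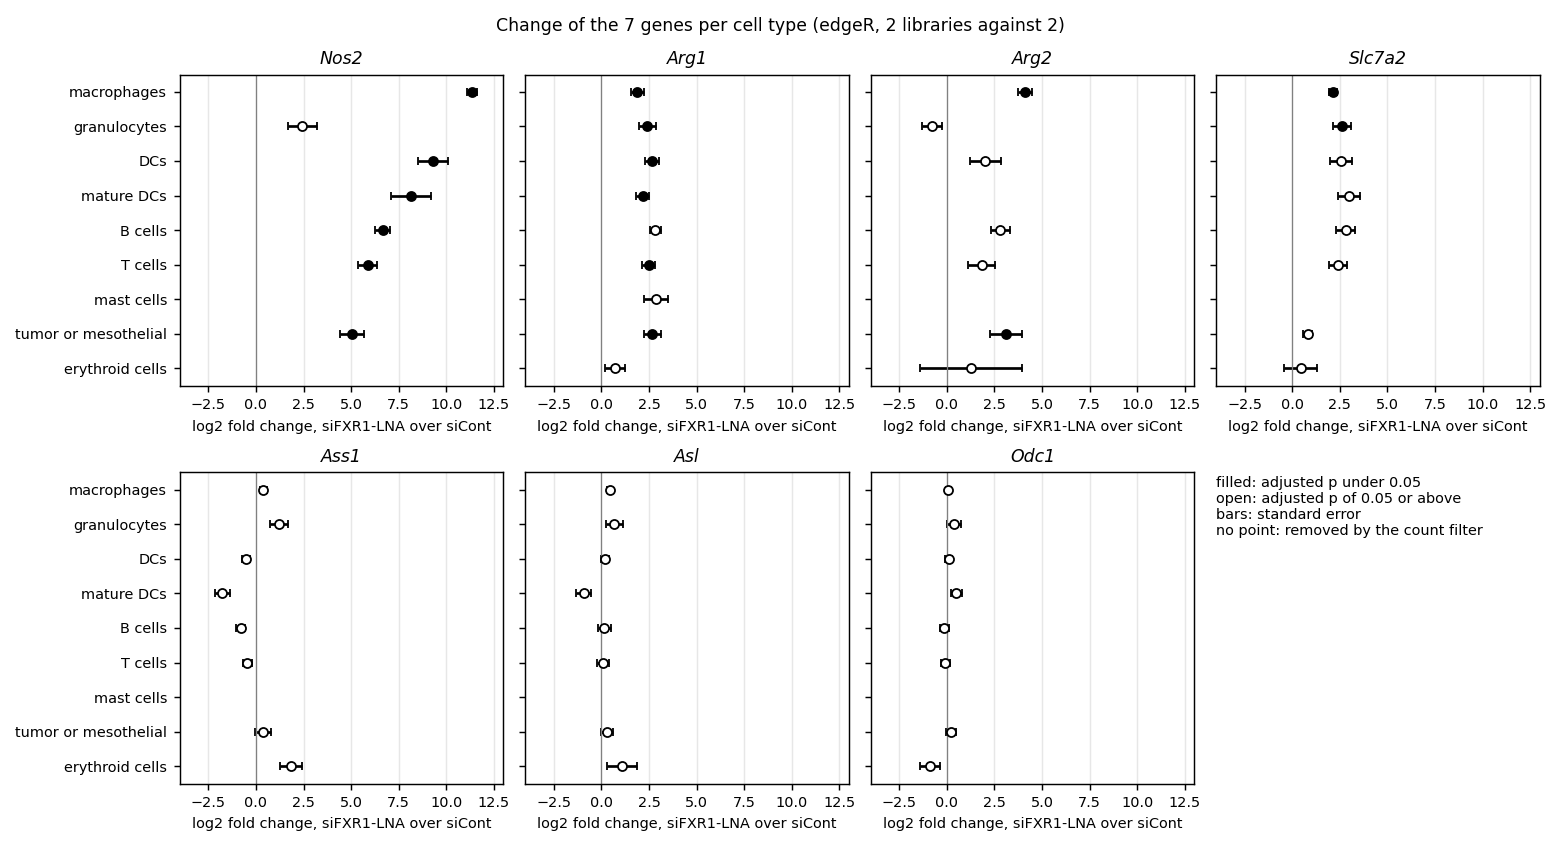
Log2 fold change of siFXR1-LNA over siCont per gene and cell type from edgeR, with the standard error as bars, filled where the adjusted p is under 0.05 and absent where the gene was removed by the filter on low counts. Nos2 in macrophages lies at 11.34, and the filled points are all to the right of 0.

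Ranked by level, Nos2 in siFXR1-LNA was highest in macrophages (mean 349 CPM), then in granulocytes (mean 84.5 CPM) without overlap. Most of the remaining types overlapped their neighbour in that order, except T cells (29.5 and 30.3 CPM) and B cells (29.3 and 27.7 CPM), which lay close together without overlap. Odc1, the ornithine decarboxylase, kept to a narrow range. In the cell types tested here, except erythroid cells, it stood between 27.3 and 86.1 CPM in every library, and T cells were highest among types with at least 10 cells per library in siFXR1-LNA (84.7 and 81.2 CPM). No Odc1 change was called in any cell type.

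The change of Nos2 in macrophages exceeded its change in T cells by 5.27 (SE 0.88, adjusted p = 0.0126, where 2.94% of genes were called) and in B cells by 4.60 (SE 0.90, adjusted p = 0.0152). The difference from T cells was lost without siCont replicate 2 (adjusted p = 0.303), and that from B cells without siCont replicate 1 (adjusted p = 0.0692) or 2 (adjusted p = 0.0680). Against granulocytes the difference was 8.33 (SE 0.79), but it turned to -2.26 without siCont replicate 2, the library whose granulocytes held Nos2. The siCont granulocytes left in that fit held 0 Nos2 UMIs, so the counts do not set the size of that value. Against DCs (-0.04, adjusted p = 0.894), mature DCs (-0.46, adjusted p = 0.967) and mast cells (0.06), the Nos2 change in macrophages did not pass as larger. The siCont cells of these types held no Nos2 UMI, so the counts do not set the size of these differences. In the separate fits the changes were 11.34 in macrophages, 9.32 in DCs and 8.15 in mature DCs. Against tumor or mesothelial cells (6.22, adjusted p = 0.0530) the Nos2 change in macrophages did not pass as larger either. For Arg1 no difference between macrophages and another type passed the test.

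Of 60 other genes of arginine handling and its control, 50 passed the filter in macrophages, 9 were called higher and 5 lower, where 9.87 and 10.7% of all genes were. Their median change was 0.01, and that of all genes 0.00. The higher genes included Azin2, an activator of ornithine decarboxylase (1.91 and 1.68 CPM in siCont, change 2.39), and Slc3a2, a partner of amino acid transporters (110 and 115 against 219 and 188 CPM, change 1.07). Of 9 genes tested from a list of inducers of Nos2, 3 were higher and 2 lower. The higher ones were the cytokines Il1b (24.1 and 45.4 against 96.1 and 137 CPM, change 1.96) and Tnf (change 1.06) and the NF-kappaB subunit Rela (change 0.41). Irf1, an interferon regulatory factor, was lower (78.3 and 71.8 against 25.3 and 38.5 CPM, change -1.02).

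Of 6 genes tested from a list of inducers of Arg1, 3 were higher and none lower. They were Hif1a, the hypoxia-inducible factor (261 and 253 CPM in siFXR1-LNA, change 1.33), the interleukin-4 receptor chain Il4ra (change 0.59) and the nuclear receptor Ppard (change 0.68). Oaz2, an antizyme of ornithine decarboxylase, was higher (change 0.73). Srm, spermidine synthase (change -0.76), Gatm, which starts creatine synthesis from arginine (62.9 and 65.9 against 28.9 and 36.3 CPM, change -0.77), and Slc7a7, a transporter of cationic amino acids (change -0.82), were lower. None of the ornithine and proline genes, the methylarginine genes or the other nitric oxide synthases and cofactor genes passed the test in macrophages.

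Outside macrophages few of these genes were called. Of all genes 1.5% were called higher and 1.61% lower in DCs, 0.9 and 2.12% in granulocytes and 2.97 and 4.87% in tumor or mesothelial cells. In DCs Il1b (change 1.96) and Cebpb (change 1.17) were higher, and 1 gene was lower. In granulocytes Klf4 (change 2.52) and Slc3a2 (change 1.93) were higher. In the tumor or mesothelial cells 5 were higher, with Il1b (change 3.92) and Klf4 (change 2.01) at the lowest p, and 3 lower, among them Slc7a7 (change -2.29). In B cells, T cells, mature DCs, mast cells and erythroid cells edgeR called 0, with 1 to 14 of them at an unadjusted p under 0.05 in each type, and DESeq2 called 5 in B cells, 5 in T cells and 0 in the other three.

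Over 41 sums of a cell type and a library, the genes whose log2(CPM + 1) followed that of Nos2 most closely among 12289 genes were the chemokine gene Cxcl3 (Pearson's r 0.90), Bnip3 (0.88), the C-type lectin gene Clec4e (0.86), the chemokine gene Cxcl2 (0.86) and the lipocalin gene Lcn2 (0.85). For Arg1 they were F13a1 (0.92), the heme oxygenase gene Hmox1 (0.92), the serum amyloid gene Saa3 (0.89), Ms4a8a (0.87) and the scavenger receptor gene Marco (0.86). The r between Nos2 and Arg1 themselves was 0.69. The sums share libraries and depth, so these values are a description.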

How the data were processed

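The authors deposited UMI counts per gene and barcode for 4 libraries of 10x Genomics 3' sequencing, made by their processing notes with Cell Ranger 7.0.0 on mm10 (the methods name another version). Depth was 78179267 to 113606837 UMIs per library. Barcodes were kept if they had between 100 and 4800 detected genes and no more than 15% of UMIs from mitochondrial genes, which leaves many more cells than the study describes. Seurat 5.3.0 clustered them (2000 variable genes, 50 components, resolution 0.1, the 7 genes left out) and again within macrophages and within T cells. Macrophage subclusters of 1637 and 83 cells that took the DC name were moved to the DCs. Clusters were named where at least 3 markers of a list were raised, by a rule written after the clusters were seen. Outside macrophages and T cells, the name was withheld where the leading genes held more markers of another list. Scrublet in scanpy 1.11.5 marked at most 1 cell and has not worked, so doublets stayed in. UMIs were summed per library and type (at least 10 cells) and tested with edgeR 4.0.16 (TMM, filterByExpr, R 4.3.3), with siFXR1-LNA against siCont. Differences between types had a library block. DESeq2 1.42.0 was an alternative. On simulated data with 4-fold changes, 94.3% were called in macrophages and 1.56% in erythroid cells. Intervals were computed with scipy 1.17.1.

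The 7 genes, the 60 further genes and the markers were chosen with earlier results of these data known. Of the 60, those called in macrophages and the 2 of lowest p per direction elsewhere are named, beside the 5 genes most like Nos2 and Arg1. The exception is 1 of the 60, which is counted but not reported here by name or value.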

Additional observations from a re-analysis of the deposited data

Results flagged for a closer look

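Each value here is the log2 change of siFXR1-LNA over siCont in macrophages minus that in another cell type, in edgeR's test of that difference with the library as a block, and each was listed because that test called it. For Nos2 the difference was 4.60 against B cells, 5.27 against T cells, 6.00 against erythroid cells (adjusted p = 0.00653, where 0.346% of genes were called) and 8.33 against granulocytes. The difference from erythroid cells was lost without siFXR1-LNA replicate 1 or 2. That from granulocytes turned to -2.26 without siCont replicate 2. The siCont granulocytes left in that fit held 0 Nos2 UMIs, so the counts do not set its size.

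For Arg2 the difference was 1.97 against DCs (SE 0.57, adjusted p = 0.0404), 2.15 against T cells (SE 0.49, adjusted p = 0.0436), 2.57 against mature DCs (SE 0.74, adjusted p = 0.0259) and 4.71 against granulocytes. Of these, the difference from DCs was lost without siCont replicate 2 (adjusted p = 0.674), siFXR1-LNA replicate 1 (adjusted p = 0.104) or siFXR1-LNA replicate 2 (adjusted p = 0.0553). That from T cells was lost without siCont replicate 2 (adjusted p = 0.396) or siFXR1-LNA replicate 1 (adjusted p = 0.0985), and that from mature DCs without siCont replicate 1 (adjusted p = 0.504) or siFXR1-LNA replicate 1 (adjusted p = 0.145). The Arg2 difference from granulocytes held without each library.

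For Ass1 the difference was 1.24 against B cells, 0.89 against DCs and 2.15 against mature DCs, and all 3 held without each library. For Asl it was 1.45 against mature DCs.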

How the results depend on the processing

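With 2 libraries per group, of 3 mice each, calls rest on few samples. Leaving out 1 library in turn leaves 1 library in a group, so members called in these fits are not counted here. The number of calls over all genes also moved widely with the library left out, as in B cells, DCs and granulocytes. A call lost or gained in such a fit need not be particular to the gene. Over these fits the Arg1 change in macrophages ran from 1.52 to 2.38, and that of Arg2 in granulocytes from -1.25 to 0.18. That of Odc1 in macrophages ran from -0.00015 to 0.17, and the Nos2 difference from granulocytes from -2.26 to 9.55.

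In B cells 4 members, against 1, were called by DESeq2, without a filter on low counts and with the replicate block. There were 2 with cells named from their marker UMIs or without the highest 5% of Scrublet scores. Over all genes the block called 725 of 12458 in B cells, against 14 of 12458 in the main fit. Marker UMI names called 8 of 12660 and the Scrublet setting 19 of 12221. In mature DCs 4 were called without a filter and 5 with the block, against 2. There were 1 with at least 500 genes per cell, 1 with marker UMI names and 0 without the highest Scrublet scores. Over all genes the block called 1369 of 7996 in mature DCs, against 49 of 7996 in the main fit. At least 500 genes per cell gave 28 of 7968, marker UMI names 40 of 9050 and the Scrublet setting 10 of 7939. In erythroid cells 1 was called by DESeq2, 1 without a filter, 1 at resolution 0.3 and 2 with marker UMI names, against 0. Resolution 0.3 called 32 of 12091 genes there and marker UMI names 436 of 13242. In mast cells 1 was called by DESeq2, without a filter, with the block and with the members among the variable genes, against 0. The block called 33 of 1652 genes there, and the setting with the members among the variable genes 36 of 1520. Granulocytes had 0 without a filter, against 2. With the members among the variable genes T cells had 1 (against 2, with 56 of 12226 genes called) and tumor or mesothelial cells 6 (against 3). In that setting a cluster of 46523 cells took the latter name, and 5609 of 13968 genes were called there. With marker UMI names tumor or mesothelial cells had 5, where 2227 of 13322 genes were called. Without a filter 2 differences from the tumor or mesothelial cells were called, against 0.

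With marker UMI names the Arg1 change in macrophages was 1.44 (adjusted p = 0.0918), short of the threshold. Within subclusters 0, 5 and 6, added after the data were seen, 0, 1 and 2 members were called, the Arg1 changes of 0.79 in subcluster 0 and 1.85 in subcluster 6 missed the threshold, and so did the Nos2 change of 7.83 in subcluster 0 (adjusted p = 0.142). The co-detection odds ratio of siFXR1-LNA replicate 1 was 2.81 without thinning. Without hemoglobin and mitochondrial genes in the totals, macrophages had a mean of 4833 CPM of Arg1 in siFXR1-LNA and 0.164 CPM of Nos2 in siCont. The called Nos2 difference from granulocytes turned to -2.26 without siCont replicate 2, in a fit whose siCont granulocytes held 0 Nos2 UMIs. The other changes that turned sign, none of them called, were Ass1 in DCs at resolution 0.3 (0.27), Arg2 in granulocytes without siCont replicate 2 (0.18), Odc1 in macrophages without siFXR1-LNA replicate 1 (-0.00015) and in subclusters 0 (-0.053) and 5 (-0.44), Asl in subcluster 5 (-0.30), and Ass1 in subclusters 0 (-0.19) and 5 (-1.44). The causes were not tested.

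The replicate block was fitted although the labels do not say what the numbers share. Same-numbered libraries deviated together with correlations of 0.015 to 0.37 over 9 cell types, from only 2 pairs, and the block left the counts of members called in the other cell types within 1.5 times.

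Over all genes, edgeR, DESeq2 and edgeR without a filter called 14, 440 and 1129 in B cells, 71, 388 and 1061 in T cells, 49, 191 and 827 in mature DCs, 357, 519 and 1525 in DCs, 372, 516 and 0 in granulocytes, 0, 63 and 94 in erythroid cells, 6, 27 and 65 in mast cells and 1029, 845 and 1944 in tumor or mesothelial cells. DESeq2's scaling moved the median of all genes to -0.21 in granulocytes, and in erythroid cells from -0.55 to 0.52.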
